A study of Mus musculus with 9 samples.

Results

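The T-cell receptor gamma chain is one of the chains of the antigen receptor of gamma-delta T cells, and this section follows the transcripts of its gene segments through a series of mouse T-cell lymphomas. The members are all probe sets of an Affymetrix array whose annotated gene symbol begins with Trg or Tcrg. There were 5 of them among 45101 probe sets, and they name 3 of the 19324 gene symbols of the annotation. Of these, 3 are assigned to Trgv4 alone (1422189_x_at, 1427802_a_at and 1450521_a_at), 1 to Trgv1 alone (1427608_a_at) and 1 to both Trgv4 and Trgv2 (1422188_s_at). The segments were chosen by the measured difference between ALT and telomerase tumours, which was already known to be large for Trgv4 and Trgv1, so that difference is described below without a test.

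All 9 tumours came from the T-cell lymphomas of G3 Atm-/-TERT-ER mice, and the ALT and telomerase tumours were passed through SCID recipients. Atm, the kinase missing from these mice, signals DNA damage, and TERT-ER joins the catalytic subunit of telomerase to a receptor domain that 4-OHT (4-hydroxytamoxifen) switches on. In 5 ALT tumours the recipients received vehicle up to passage 4, and telomeres were kept by alternative lengthening of telomeres (ALT). In 3 telomerase tumours the recipients received 4-OHT up to passage 4. The 1 parental tumour, labelled telomerase-positive, has no replicate, and its label gives no passage. Drug, telomerase activity and ALT change together in this design and cannot be told apart. SCID mice make almost no mature T cells of their own, but they keep natural killer cells, macrophages and stroma. Whether the numbered tumours grew in different animals is not stated, and the p-values therefore cover the spread among these arrays, which may be technical.

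A functional gamma gene is assembled in developing thymocytes: the RAG recombinase joins a variable (V) segment to a joining (J) segment, and splicing then adds a constant (C) region. The locus also gives unrearranged transcripts before recombination, when signals from the interleukin-7 receptor open it. In alpha-beta T cells of the mouse, gamma transcripts are often silenced or the gamma genes are out of frame. In the RefSeq table of GRCm38.p6 the mouse locus lies on chromosome 13 with 15 segments, 7 V, 4 J and 4 C. Trgv4 stands second in the order Trgv7, Trgv4, Trgv6, Trgv5, Trgj1, Trgc1, Trgv3, Trgj3, Trgc3, Trgc2, Trgj2, Trgv2, Trgv1, Trgj4, Trgc4, and Trgv1 stands 13th, in the part of the locus with Trgj4 and Trgc4. The other 12 segments have no probe set of this annotation. In the naming of these arrays, _a marks a probe set for several transcripts of a gene, _s one shared by several genes and _x one that may also bind other genes. The position of the probes within V, J or C sequence was not analysed here, so each probe set is taken as a reading of gamma transcripts filed under the segment named.

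Array medians lay between 39.8 and 43.8 units of signal, which is too close to separate the groups. No detection calls came with the signals, the background level is therefore unknown, and the number of arrays limits the precision. Defining T-cell genes were present in every tumour: the summed signal of the 7 measured of 9 listed T-cell markers was 19895 to 25905 in ALT tumours, 28107 to 30425 in telomerase tumours and 29659 in the parental tumour. The markers did not move together. Mean signals were lower in ALT than in telomerase tumours for Cd3g (5001 against 8828), Cd3d (7305 against 9524) and Cd3e (1468 against 2090). They were close for Thy1 (5427 against 5259), Cd247 (2719 against 2769) and Cd5 (315 against 331), and higher for Cd2 (629 against 317). Pancreatic acinar transcripts (8 of 10 listed genes measured) summed to between 66857 and 131136 in ALT 1, ALT 2 and ALT 5 and to 87673 in telomerase 3, against 228 to 811 in the other 5 arrays. Skeletal muscle transcripts (7 genes) summed to 7415 in telomerase 1 and 11403 in the parental tumour, and to between 206 and 466 in the other tumours.

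Gamma transcripts were abundant in every tumour labelled telomerase-positive and far lower in the ALT tumours. In ALT 1, ALT 2, ALT 3 and ALT 5 the probe sets that list Trgv4 stood above 3.46% to 32.2% of the probe sets on their array. The Trgv1 probe set stood above 26.9% to 54.55% of them there. Of the probe sets for Trgv4 alone, the one with the highest mean level, 1450521_a_at, gave 12.2, 8.35, 4.59, 167 and 6.77 in ALT 1 to ALT 5, against 1261, 1621 and 3009 in telomerase 1 to telomerase 3. The parental tumour gave 2210, within the range of the telomerase tumours. ALT 4 was by far the highest of the ALT tumours and still lay well below the lowest telomerase tumour, so the groups did not overlap. The group means were 39.8 ± 71.2 in ALT tumours (SD, n = 5) and 1964 ± 923 in telomerase tumours (SD, n = 3), and the difference of mean log2(signal + 16) was −5.69. Without ALT 4 the ALT mean was 7.98 ± 3.22, and the difference was −6.28. In these whole-tumour RNA samples, fewer cells with gamma transcripts and less gamma RNA per cell cannot be told apart.

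**Figure D1:**
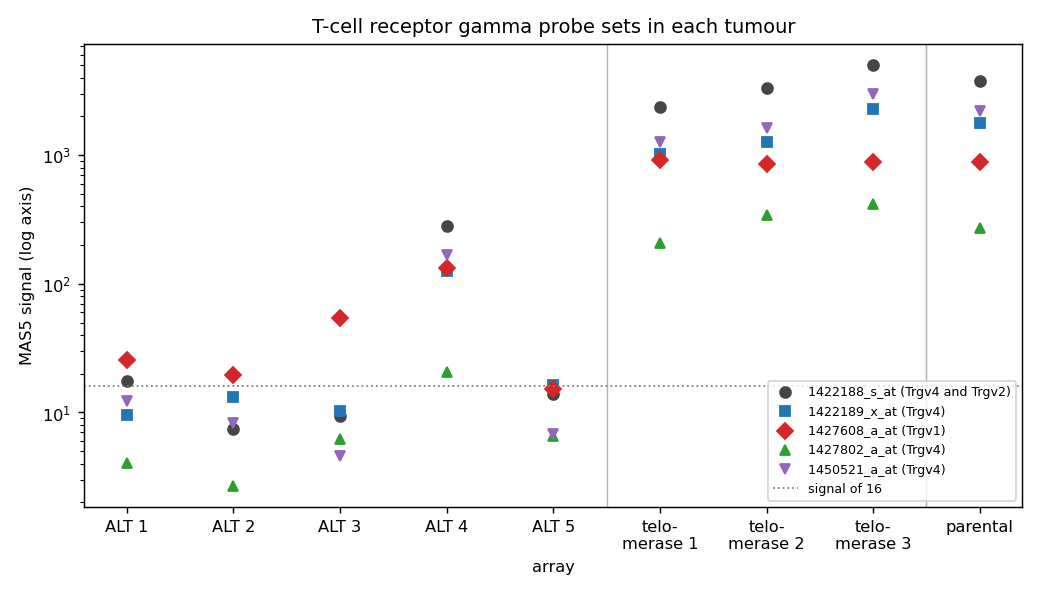
MAS5 signal (log axis) of the 5 gamma probe sets in each of the 9 arrays, 1 point per array and probe set, with ALT tumours left of the telomerase tumours and the parental tumour on the right; the dotted line marks a signal of 16. All telomerase and parental points lie between 206 and 5022, while ALT 4 lies between 20.7 and 281 and the other ALT tumours lie between 2.67 and 54.1.

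The other probe sets that list Trgv4 divided the tumours in the same way at their own levels. The second, 1422189_x_at, gave 9.59, 13.3, 10.3, 126 and 16.3 in ALT 1 to ALT 5, against 1028, 1260 and 2279 in telomerase 1 to telomerase 3, and 1770 in the parental tumour. The third, 1427802_a_at, gave 4.02, 2.67, 6.27, 20.7 and 6.53 in the ALT tumours, against 206, 345 and 420 in the telomerase tumours, and 271 in the parental tumour. In each of them ALT 4 was again the highest ALT tumour and telomerase 3 the highest telomerase tumour. The probe set shared by Trgv4 and Trgv2, 1422188_s_at, gave 17.5, 7.43, 9.31, 281 and 13.9 in the ALT tumours, against 2378, 3327 and 5022 in the telomerase tumours, and 3799 in the parental tumour. It gives neither gene a value of its own. These 4 probe sets can read the same transcripts and are not independent of each other.

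Trgv1, the V segment at the other end of the locus, was lower in ALT tumours as well, with another pattern inside the groups. Its probe set 1427608_a_at gave 25.7, 19.6, 54.1, 132 and 15.2 in ALT 1 to ALT 5, against 918, 857 and 890 in telomerase 1 to telomerase 3, and 892 in the parental tumour. The 4 tumours labelled telomerase-positive were nearly level, and ALT 4 followed by ALT 3 stood highest among the ALT tumours. The means were 49.3 ± 48.8 in ALT tumours (SD, n = 5) and 888 ± 30.8 in telomerase tumours (SD, n = 3), and the difference on the log2 scale was −4.05.

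Within the telomerase group the segments varied to different degrees. The highest telomerase tumour had 2.04 to 2.39 times the signal of the lowest in the 4 probe sets that list Trgv4, with a coefficient of variation of 33.5% to 47.0%. For Trgv1 that ratio was 1.07 and the coefficient of variation 3.46%. Telomerase 1 was the lowest of its group in all 4 probe sets that list Trgv4 and the highest for Trgv1. The parental tumour had 1.31 to 1.75 times the telomerase 1 signal in those 4 probe sets and 0.972 times for Trgv1. Telomerase 1 and the parental tumour are the 2 arrays with muscle transcripts, and they differ here, while telomerase 3, the array of its group with pancreatic transcripts, was the highest for Trgv4. The part of these tissues in the spread was not tested.

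The residual signal in ALT tumours was mostly that of ALT 4. As a share of the telomerase mean, ALT 4 kept 6.38% to 8.51% in the 4 probe sets that list Trgv4 and 14.9% for Trgv1. The mean of the other 4 ALT tumours was 0.336% to 1.51% of it in those probe sets and 3.22% for Trgv1. Over the 5 probe sets, 15 of the 25 ALT values were below 16 and 20 were below the median of all probe sets on their array. The 5 that were not were the ALT 4 values of every probe set except 1427802_a_at and the Trgv1 value of ALT 3. In ALT 4 the summed T-cell markers were 25905 and the natural killer cell markers (10 of 11 listed genes measured) summed to 2215, the highest of the ALT tumours in both cases. The range of the natural killer sums was 1555 to 2215 in ALT tumours and 2031 to 2185 in telomerase tumours. The defining natural killer genes Ncr1, Klre1, Klrd1, Klrk1 and Eomes lay below the expression filter. The part of either cell type in the ALT 4 signal was not tested.

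All 5 gamma probe sets had every ALT tumour below every telomerase tumour, which was the case for 10.3% of all 45037 probe sets that are not controls and for 13.8% of the 12360 tested genes. Because this contrast chose the segments, nothing is read from that count. The differences of mean log2(signal + 16) were −6.27 for 1422188_s_at, −5.69 for 1450521_a_at, −5.22 for 1422189_x_at, −4.05 for 1427608_a_at and −3.81 for 1427802_a_at. All 5 passed the expression filter, set at the lowest 40% of probe sets. For 1422189_x_at, 1427802_a_at and 1450521_a_at the ALT mean on the log2 scale was under that level, so they passed through the telomerase and parental tumours. Since many ALT values lie below 16, the size of the log2 difference depends on the amount added before taking logs: for 1450521_a_at it was −6.88 with 1 and −4.39 with 64. In the arrays without pancreatic transcripts (ALT 3 and ALT 4 against telomerase 1 and telomerase 2) it was −4.56, and in those with them (ALT 1, ALT 2 and ALT 5 against telomerase 3) it was −6.92.

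Genes that flank the locus on chromosome 13 were lower in ALT tumours too, by much smaller amounts. Of the 20 nearest tested genes on each side, 24 of 40 fell and 0 rose, where 10.0% of all 12360 tested genes fell and 7.47% rose (limma, Benjamini-Hochberg adjusted p under 0.05). The median log2 change of the 40 was −0.60, against −0.0059 over all tested genes. Before the locus 15 of 20 fell, and after it 9 of 20 fell. Amph, C230035I16Rik and Prss16, counted among those that fell, had ALT means of 7.40, 19.9 and 18.0. These means lie under the expression filter level of 24.2. The 3 genes were therefore tested only because of their level in the telomerase and parental tumours, and little can be read from their calls. Between 19 and 24 of the 40 passed when any 1 array was left out, where 1152 to 2076 of all tested genes passed. Within the arrays without pancreatic transcripts 12 of the 40 passed, where 837 of all tested genes did. All of these neighbours were lower in ALT tumours. Over chromosome 13 outside the locus, 175 of 445 tested genes fell and 9 rose, with a median log2 change of −0.37.

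The closest tested gene before the locus was Amph, which encodes amphiphysin, a protein of membrane endocytosis. It fell to 7.40 ± 4.36 in ALT tumours (SD, n = 5), against 74.9 ± 40.8 in telomerase tumours (SD, n = 3), a log2 change of −1.89 (SE 0.27, limma adjusted p = 0.0014). The ALT values of Amph were all below 16, so it passed the expression filter through the other tumours, and with 64 added before taking logs its log2 change was −0.92. Vps41, a subunit of a vesicle tethering complex and the second gene on that side, fell by 0.73 on the log2 scale (adjusted p = 0.00182). On the other side Stard3nl, a protein of late endosome membranes, fell by 0.47 (adjusted p = 0.0123, and 0.0695 without telomerase 1). Within the smaller set of arrays without pancreatic transcripts neither passed, at log2 changes of −0.77 for Vps41 and −0.55 for Stard3nl (adjusted p = 0.0543 and 0.098). Elmo1, which takes part in cell migration and engulfment, did not pass, at −0.31 on that scale (adjusted p = 0.109, and 0.0442 without ALT 3). The other 23 neighbours that fell lay between −1.32 and −0.47, and with 64 added B3galnt2 (−1.17) and Ggps1 (−0.98) were further down than Amph.

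Reductions of neighbours with higher signals differed in size. Psma2, a subunit of the proteasome core, gave 2055 ± 154 in ALT tumours (SD, n = 5) and 3683 ± 232 in telomerase tumours (SD, n = 3) (log2 change −0.84, limma adjusted p = 0.000149). Trim27, a RING finger protein, gave 978 ± 58.8 in ALT tumours and 1835 ± 107 in telomerase tumours (SD, n = 5 and n = 3; log2 change −0.90, limma adjusted p = 0.00011). Cdk13, a kinase that acts on RNA polymerase II, fell by 0.66 (adjusted p = 0.000784), and B3galnt2, a glycosyltransferase, fell by 1.32 (adjusted p = 0.000376). With the mean of each gene's probe sets the log2 change was −0.65 for B3galnt2 and −0.59 for Trim27 (adjusted p = 0.00182 and 0.00106).

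Summed up by their median, the flanking genes were lower by about the same amount in each ALT tumour. Relative to the telomerase mean, the median log2 difference of the 40 neighbours was −0.63, −0.62, −0.63, −0.58 and −0.64 in ALT 1 to ALT 5, and 0.04 in the parental tumour. Gene by gene, ALT 4 was the highest ALT tumour for 14 of the 24 neighbours that fell, against 2 to 4 for each of the other ALT tumours. Outside the gamma segments, ALT 4 was also the highest for 36.8% of all genes that fell and for 26.4% of all tested genes. Between 32 and 35 of the 40 genes were below the telomerase mean in each ALT tumour, against 16 in the parental tumour. For 1450521_a_at the log2 difference from the telomerase mean was −3.34 in ALT 4 and −6.28 in the mean of the other ALT tumours.

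**Figure D2:**
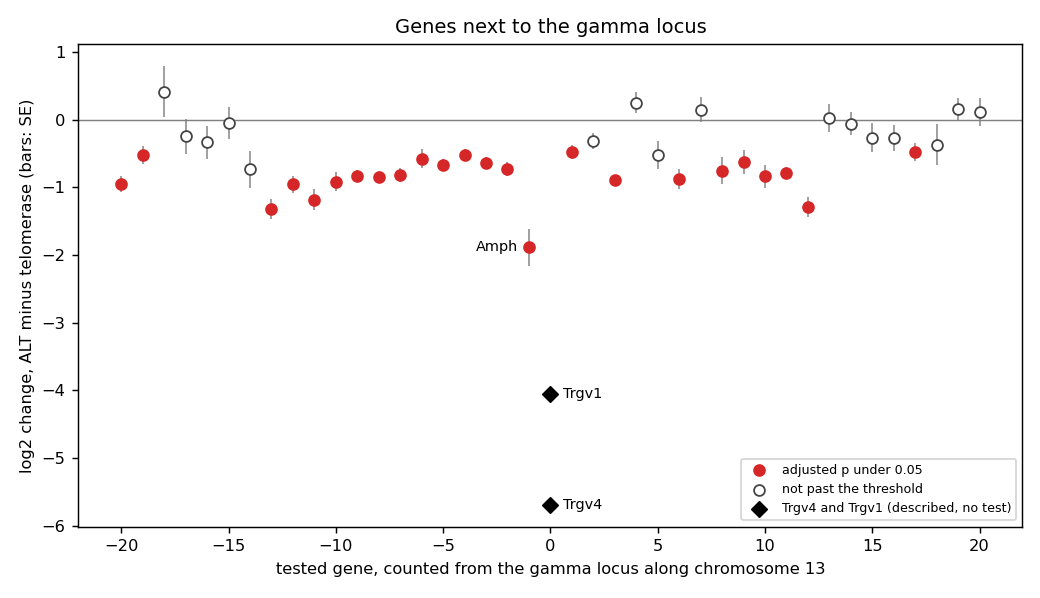
Log2 change (ALT minus telomerase, points, with SE as bars) of the 20 nearest tested genes on each side of the gamma locus, in gene order along chromosome 13, with Trgv4 and Trgv1 placed at 0 and drawn without a test. Red points passed an adjusted p of 0.05; they are 24 of 40, all lower in ALT tumours, and lie between −1.89 and −0.47, against −5.69 for Trgv4 and −4.05 for Trgv1.

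The 2 alpha and beta segments that passed the expression filter did not share the pattern of the gamma probe sets. The annotation names 8 genes of the alpha and beta loci with 13 probe sets, and 6 of those genes lay below the expression filter. For Trbv1, a beta segment, the probe set 1452205_x_at gave 8451, 7104, 6246, 6192 and 5714 in ALT 1 to ALT 5, against 6752, 7101 and 7753 in telomerase 1 to telomerase 3, and 7396 in the parental tumour. The groups overlapped (log2 change −0.11, limma adjusted p = 0.574). The second probe set of Trbv1, 1433108_at, gave 392 to 739 in ALT tumours, against 67.3 to 403 in telomerase tumours, and with the mean of both the log2 change was 0.81 (adjusted p = 0.0475). For Trav9d-3, an alpha segment, the probe set 1452405_x_at gave 410, 366, 287, 401 and 202 in ALT 1 to ALT 5, against 82.3, 184 and 75.8 in telomerase 1 to telomerase 3. It rose in ALT tumours (log2 change 1.48, SE 0.291, limma adjusted p = 0.00739). The parental tumour, at 451, was above all ALT tumours there, and with it added to the telomerase group the adjusted p was 0.115. It was 0.0667 within the arrays without pancreatic transcripts.

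None of the 13 alpha and beta probe sets had every ALT tumour below every telomerase tumour. That was the case for only 10.3% of all probe sets, so little can be read from this count. The probe sets of the genes below the expression filter stayed at or below 34.5 in every array and could hardly show such a difference. The Trav9d-3 probe sets 1426113_x_at and 1426168_a_at followed the same order of groups as 1452405_x_at, with the parental tumour above every ALT tumour. The remaining 2 probe sets of that gene stayed at or below 42.2 in every array.

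The CD3 complex carries the receptor chains to the cell surface and signals for them. Of 25 tested genes of CD3 and receptor signalling, 4 rose and 4 fell, which is 32.0% against 17.5% of all tested genes. Without telomerase 1 it was 2 and 3, where 1152 of all tested genes passed instead of 2160. The largest rise was in Trat1, an adaptor that stabilises the receptor complex, with 1539 ± 311 in ALT tumours (SD, n = 5) and 221 ± 114 in telomerase tumours (SD, n = 3) (log2 change 2.79, limma adjusted p = 0.000138). Cd3g and Cd3d, which encode chains of the complex itself, fell by 0.82 and 0.39 (adjusted p = 0.00076 and 0.00414). Its chain Cd3e fell by 0.50 (limma adjusted p = 0.0203), while its chain Cd247 did not pass, at a log2 change of −0.03 (limma adjusted p = 0.903). Cd8b1, a chain of the CD8 coreceptor, rose by 0.96 (adjusted p = 0.00362). The median log2 change of the list was 0.02. Within the smaller set of arrays without pancreatic transcripts Cd8b1 and Cd3d no longer passed, at log2 changes of 1.02 and −0.32 (adjusted p = 0.0542 and 0.0792).

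Of 12 tested genes of V(D)J recombination and end joining 1 rose and 0 fell, which is 8.33% against 17.5% of all tested genes, and the median log2 change was −0.03. Rag1, a subunit of the recombinase, gave 3080 to 5881 in ALT tumours, against 3736 to 4413 in telomerase tumours, and the groups overlapped (log2 change 0.27, adjusted p = 0.348, and 0.00998 without ALT 5). Within the arrays without pancreatic transcripts Rag1 passed as higher in ALT tumours, at a log2 change of 0.55 (limma adjusted p = 0.0218). Xrcc6, the Ku70 subunit that binds broken ends, rose by 0.59 (adjusted p = 0.0297), and the call was lost without any one of ALT 1, ALT 2, ALT 3, telomerase 1, telomerase 2 and telomerase 3 (adjusted p from 0.0555 to 0.103). Hmgb2, a DNA-bending cofactor of the recombinase, had a log2 change of 0.14 (adjusted p = 0.368). Prkdc, the kinase of end joining, had a log2 change of −0.27 (adjusted p = 0.16).

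Of 20 tested genes listed as possible regulators of the gamma locus, mostly transcription factors, receptors and kinases, 3 rose and 8 fell. That is 55.0% against 17.5% of all tested genes, and the median log2 change was −0.19. Action of these genes on the locus was not tested. Without telomerase 1 it was 2 and 5, where 1152 of all tested genes passed instead of 2160. Lef1, a partner of beta-catenin in thymocytes, fell to 1464 ± 127 in ALT tumours (SD, n = 5), against 3387 ± 400 in telomerase tumours (SD, n = 3) (log2 change −1.20, limma adjusted p = 7.93e-05). Runx1, a factor that binds antigen receptor enhancers and silencers, fell by 0.77 (adjusted p = 0.00186), while its relative Runx3 rose by 0.84 (adjusted p = 0.000515). Tcf12, one of the E proteins, fell by 0.47 (adjusted p = 0.00358). Within the arrays without pancreatic transcripts 3 rose and 1 fell, where 837 of all tested genes passed. Runx1 and Tcf12 did not pass within these arrays, at log2 changes of −0.66 and −0.36 (limma adjusted p = 0.0761 and 0.0716).

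Of 20 tested genes linked to the gamma-delta lineage, 2 rose and 4 fell, which is 30.0% against 17.5% of all tested genes. Without telomerase 1 it was 1 and 2, where 1152 of all tested genes passed instead of 2160. Sox13, a transcription factor found in gamma-delta thymocytes, gave 293, 220, 439, 587 and 237 in ALT 1 to ALT 5, against 755, 921 and 860 in telomerase 1 to telomerase 3, and 733 in the parental tumour. ALT 4 was the highest ALT tumour, as it was for 36.8% of all genes that fell. It lay below all telomerase tumours (a log2 change of −1.31 with an SE of 0.283 and a limma adjusted p = 0.0117). Within the arrays without pancreatic transcripts the log2 change of Sox13 was −0.70 (adjusted p = 0.0748). Id3, an inhibitor of E proteins, fell by 1.26 (adjusted p = 0.00956, and 0.0529 without telomerase 1). Sox4, which acts upstream of Sox13 in mouse thymocytes and lies on chromosome 13, fell by 0.88 (adjusted p = 0.000149). Maf, a factor of interleukin-17-producing gamma-delta cells, rose to 1970 ± 491 in ALT tumours (SD, n = 5), against 507 ± 285 in telomerase tumours (SD, n = 3) (log2 change 2.02, limma adjusted p = 0.00219).

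**Figure D3:**
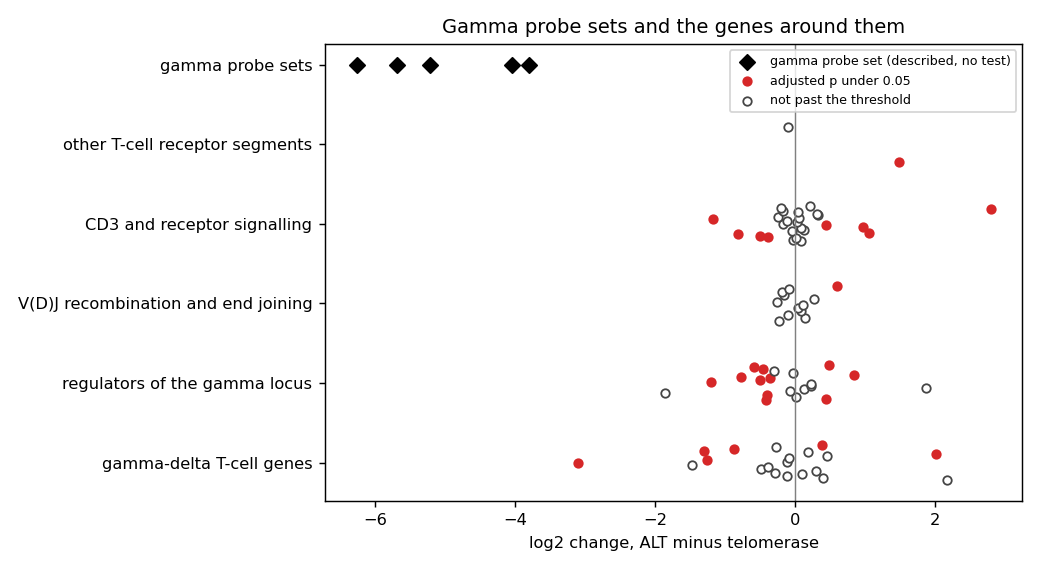
Log2 change, ALT minus telomerase, of the 5 gamma probe sets (black, no test) and of each tested gene of 5 lists around them; red points passed an adjusted p of 0.05. The gamma probe sets lie between −6.27 and −3.81, and all points of the lists lie between −3.10 and 2.79.

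The genes with the pattern most like the gamma segments were found by Pearson correlation of log2(signal + 16) over the 9 arrays, so they share the arrays and the group difference with them. Closest to Trgv4 were Zc3h7b, a zinc finger protein (r = 0.991), Get1, which inserts tail-anchored proteins into the endoplasmic reticulum (0.989), the haematopoietic myosin Myo1g (0.988), Sft2d2 of the Golgi (0.987) and Kdm5c, a histone demethylase (0.986). Closest to Trgv1 were Ralgps2, an activator of Ral GTPases (r = 0.996), Elfn2 (0.993), Zc3h7b (0.992), Aif1l (0.991) and Rapgef2, an activator of Rap1 (0.990). None of these 9 genes lies on chromosome 13. Elfn2 gave 36.9, 21.5, 57.4, 106 and 22.6 in ALT 1 to ALT 5, against 302, 244 and 321 in telomerase 1 to telomerase 3, and 328 in the parental tumour. Its ALT 4 and ALT 3 values were the highest of the group, in the order seen for Trgv1. Likeness to Trgv1 over these same arrays chose Elfn2, so nothing is read from that shared order.

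Log2 changes of these 9 genes ran from −2.37 (Elfn2) to −0.52 (Myo1g), smaller than those of the gamma probe sets. Rapgef2 gave 817 ± 190 in ALT tumours (SD, n = 5) and 3565 ± 390 in telomerase tumours (SD, n = 3), a log2 change of −2.12. For Sft2d2 the log2 change was −0.98 with its strongest probe set and −0.01 with the mean of its probe sets. These changes are given without a test, since likeness to the gamma segments chose the genes.

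**Figure D4:**
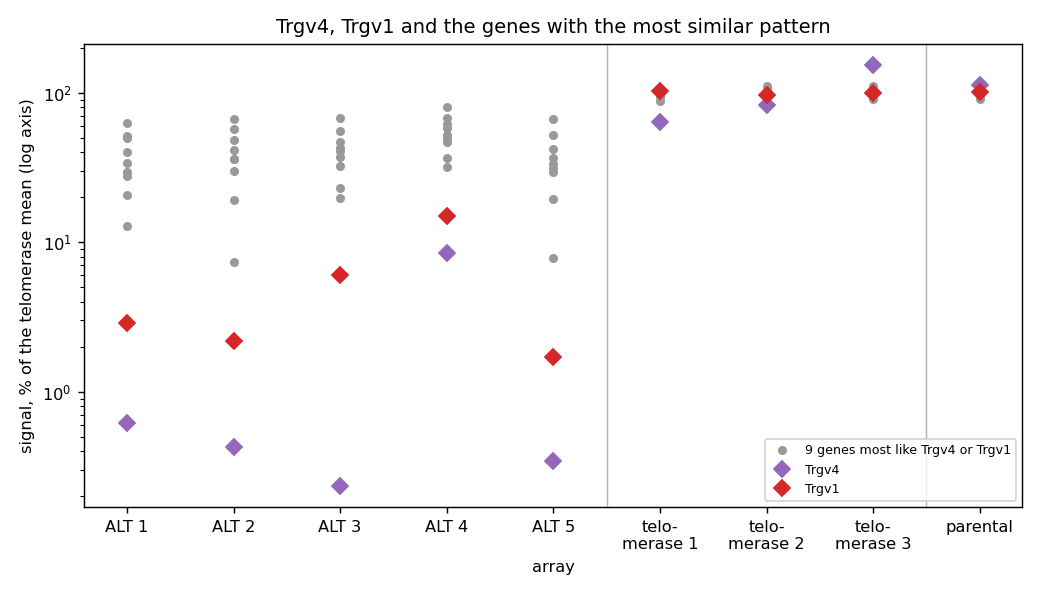
Signal in each array as a percentage of the mean of the 3 telomerase tumours (log axis) for Trgv4 (1450521_a_at), Trgv1 (1427608_a_at) and the 9 genes with the highest correlation to either (grey). ALT 4 has the highest grey points of the ALT tumours, as for Trgv4 at 8.51% and Trgv1 at 14.9%, and the grey genes keep a larger share of the telomerase level than the gamma segments in every ALT tumour.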

How the data were processed

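Biotin-labelled total RNA of 9 tumours was hybridised to 1-colour arrays. The deposited table holds 1 linear intensity per probe set and array, computed by MAS5, as named in the submitters' processing notes; its version and scaling target are not stated there. Groups came from the sample titles.

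Probe sets were named from the platform annotation (34958 with 1 gene, 932 with several, 9211 with none; 64 are controls), and RefSeq GRCm38.p6 gave gene order; coordinates are not printed. No gamma sequence was at hand, so none is shown. Values were used as log2(signal + 16) with no further normalisation. Per gene the probe set with the highest mean was kept and the lowest 40% left out (12360 genes). ALT and telomerase tumours were compared with limma 3.58.1 in R 4.3.3 (trend, two-sided, Benjamini-Hochberg over all genes, threshold 0.05), without the parental tumour. Calls in simulated data with the spread of this comparison (12360 genes) recovered 36% of log2 changes of 0.5, 70% of 1 and 98% of 2, with 4 false calls.

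Members, lists and settings were chosen with earlier results of these data known. Named are all gamma probe sets, up to 4 genes per list with the smallest p, flanking genes (the nearest 2 on each side, or past the threshold) and the 5 genes most correlated with Trgv4 and with Trgv1. The measured T-cell markers are named as well. Alternatives were the filter, the pseudocount, quantile and median scaling, the mean of probe sets, the parental tumour, a replicate block, robust moderation, arrays split by pancreatic transcripts (a sum of 8 genes above 10000) and each array left out. Plots used Python 3.11.15 and matplotlib 3.10.9.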

Additional observations from a re-analysis of the deposited data

Results flagged for a closer look

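Among the 5 ALT tumours, ALT 4 stood far above the rest in 4 of the 5 gamma probe sets: 281 in 1422188_s_at, 126 in 1422189_x_at, 20.7 in 1427802_a_at and 167 in 1450521_a_at. The gap to the next ALT tumour was 0.963, 0.942, 0.785 and 0.953 of the group's whole range, above the critical value of Dixon's test at 5 samples. For Trgv1 the gap was 0.668 of the range, short of that value. ALT 4 was also set apart for Zc3h7b (360) and Myo1g (448), which were picked for their likeness to Trgv4, and for the flanking gene Edaradd (391). For Runx3 it was ALT 1, at 843, that lay apart, below the other ALT tumours. Chance alone would set apart about 1 in 20 such groups if the values were normally distributed. The rule was applied to linear signals, for which that rate is not known, and to every named gene as well as the gamma probe sets.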

How the results depend on the processing

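The gamma probe sets were lower in ALT tumours under each setting computed for them: the pseudocounts, both scalings, the added parental tumour, the splits by pancreatic transcripts and each array left out. With a pseudocount of 1 the log2 difference was −5.40 for 1427802_a_at and −6.88 for 1450521_a_at. With 64 it was −4.04 for 1422189_x_at, −3.16 for 1427608_a_at, −2.39 for 1427802_a_at and −4.39 for 1450521_a_at. In arrays without pancreatic transcripts it was −4.24 for 1422189_x_at, −3.15 for 1427608_a_at and −3.31 for 1427802_a_at, and in those with them −6.31 for 1422189_x_at, −4.42 for 1427802_a_at and −6.92 for 1450521_a_at. Leaving out 1 array gave −6.95 to −5.99 for 1422188_s_at, −5.68 to −4.89 for 1422189_x_at, −4.41 to −3.85 for 1427608_a_at, −4.09 to −3.60 for 1427802_a_at and −6.28 to −5.34 for 1450521_a_at. Genes past the threshold numbered 2160; without 1 array they were 1152 (telomerase 1) to 2076, in arrays without pancreatic transcripts 837 and in those with them 334. Without 1 array the calls were 5 to 9 in CD3 and receptor signalling, 7 to 13 among regulators of the locus, 3 to 6 among gamma-delta genes, 0 to 2 in V(D)J recombination, 1 among other receptor segments, 19 to 24 among the flanking genes and 133 to 207 on chromosome 13. In arrays without pancreatic transcripts these were 3, 4, 7, 2, 0, 12 and 94, in the same order, and in those with them 1, 4, 4, 0, 0, 10 and 54. Among other receptor segments 2 passed with the mean of probe sets and 0 with the parental tumour in the telomerase group. The cause of these shifts was not tested; the splits by tissue also hold fewer samples, and the second rests on 1 telomerase array, assumed to vary like the ALT arrays. With replicate numbers as a block 982 genes passed, with 5 in CD3 and receptor signalling, 3 among gamma-delta genes and 117 on chromosome 13. Same-numbered tumours did not deviate together (r of −0.30, −0.40 and −0.57 over genes). Each of these pairs joins an array with pancreatic transcripts to one without them. Pairs alike in these transcripts had positive r, such as 0.45 for ALT 2 with telomerase 3 and 0.42 for ALT 3 with telomerase 2. Whether the numbers pair the tumours therefore cannot be read from these values. Trbv1 turned to a log2 change of 0.81 with the mean of probe sets. Without detection calls, the gamma levels in ALT tumours below 16 have no order that can be read.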

Other observations

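ALT 4 was the highest ALT tumour for more genes than the others, beyond the gamma segments. Of 1235 genes that fell in ALT tumours, it was the highest of the group for 454 (36.8%), against 149 to 240 for each of the other 4 ALT tumours. Among the 47 of these that fell by over 2 on the log2 scale, ALT 5 was the highest for 20 (42.6%) and ALT 4 for 14 (29.8%). Among all 12358 tested genes other than Trgv4 and Trgv1, ALT 4 was the highest for 3260 (26.4%), against 1870 to 2889 for each of the others.

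A pair of genes from the list of locus regulators were picked after their values were seen. They divide the ALT tumours in another way than the probe sets that list Trgv4. The Trgv1 probe set, like this pair, had ALT 4 and ALT 3 highest among the ALT tumours, at 132 and 54.1. Il7r, the receptor chain for interleukin-7, gave 153, 90.9, 542, 537 and 49.3 in ALT 1 to ALT 5, against 30.7, 33.3 and 60.8 in telomerase 1 to telomerase 3 (log2 change 1.87, limma adjusted p = 0.0841). Hes1, a target of NOTCH signalling, gave 49.1, 29.8, 292, 220 and 48.8 in the ALT tumours, against 335, 386 and 407 in the telomerase tumours (log2 change −1.87, limma adjusted p = 0.0542). ALT 3 and ALT 4 were high for both, and these are the 2 ALT arrays whose summed acinar transcripts were 811 and 482, against 66857 to 131136 in the other ALT arrays. The part of pancreatic tissue in this was not tested.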
